A study of Saccharomyces cerevisiae with 8 samples.

Results

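Diploid yeast cured of a natural prion, [SMAUG+], was compared with yeast that carried it, after 14 h in sporulation (SPO) medium. The comparison rests on 4 of the 8 poly(A) RNA libraries of the series, the 2 labelled cured SPO and the 2 labelled prion SPO, chosen by title and medium and by no measured value. All 4 come from Saccharomyces cerevisiae BY4743, a diploid laboratory strain, and carry a wild-type genotype by the labels. In the cured group (titles perfect_cured) the prion had been removed by selective curing, whose method the labels leave to a citation. The prion group (titles natSMAUG+) is labelled untreated. Before the transfer, cultures of both groups had reached saturation over 48 h in preSPO medium, and 4 further libraries, 2 per state, were taken at that point. Those 4 entered the fit to help estimate the spread and the test of whether a difference depended on the medium. The labels do not say how many cured isolates were used, and everything was measured in 1 strain background. The design text calls the replicates biological but names conditions, VTS1 overexpression and a vts1 deletion, that no sample label gives. The p-values below therefore measure the spread between these libraries, which may in part be technical.

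Vts1 is the yeast member of the Smaug family of RNA-binding proteins. Its SAM domain binds short RNA hairpins, the Smaug recognition elements, and it brings bound messages to the Ccr4-Not deadenylase, which shortens poly(A) tails. [SMAUG+] is a self-templating form of Vts1 that is inherited through the cytoplasm. Sporulation is the meiotic programme that diploid cells enter when they lack nitrogen and a fermentable carbon source. The regulator Ime1 starts it, early genes carry out recombination, Ndt80 turns on the middle genes of the meiotic divisions, and late genes build the spore wall. RNA of whole cultures was measured, so fewer cells of a type and less RNA per cell cannot be told apart.

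The estimated counts summed to 4650288 and 71684771 in the cured SPO libraries, against 9716972 and 15047707 in the prion SPO libraries, so the second cured library was the deepest of the series and the first the shallowest. Levels are given as CPM, the estimated counts scaled to a common library size after correction by edgeR's TMM factors. The sporulation genes IME1 and SPS100 were higher in SPO than in preSPO libraries in both groups. Not every such gene was: DIT1, given below, was lower in SPO medium in both groups. IME1 stood at 111 to 211 CPM in the 4 SPO libraries, against 14.1 to 20.4 CPM in the 4 preSPO libraries. SPS100, a gene of late spore wall maturation, stood at 1181 to 2439 CPM in SPO medium, against 5.502 to 7.91 CPM in preSPO medium. The middle gene SPS4 was low after 14 h, with 6.58 and 9.44 CPM in cured and 6.73 and 6.97 CPM in prion libraries. Of 10 markers of haploid cells, MFA1 had 0 counts in every library, and their summed level was 169 and 166 CPM in cured SPO, against 167 and 178 CPM in prion SPO libraries. In preSPO medium that sum was lower, at 79.1 and 81.8 CPM in cured and 95.6 and 133 CPM in prion libraries. The growing-cell markers CLN1, CLN2, PCL1 and RNR1 were all counted; RNR1 had 39.0 and 18.9 CPM in cured and 25.8 and 18.6 CPM in prion libraries.

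MET17, which encodes the enzyme that makes homocysteine from sulfide (chromosome XII, 732542 to 733876, build R64), went against the state labels in SPO medium. It had 447 and 13 estimated counts in the libraries labelled cured SPO 1 and 2, against 1363 and 1 in those labelled prion SPO 1 and 2. Before the transfer, in preSPO medium, cured cultures gave 0 and 1 counts and prion cultures 3207 and 3867. The library labelled cured SPO 1 thus had MET17 at 71.8% of the rate of prion SPO 1 (95% exact interval 64.4 to 80.0, counting error only). BY4743 is heterozygous for deletions of MET17 and LYS2 by its pedigree. The other strain markers gave no such contrast. LYS2, of lysine synthesis, stood at 55.1 and 46.1 CPM in cured and 48.6 and 41.6 CPM in prion libraries, and HIS3, of histidine synthesis, at 64.4 and 87.0 CPM in cured and 71.2 and 79.1 CPM in prion libraries. LEU2 and URA3 reached at most 3 and 15 counts in any SPO library. The group names below are those of the labels, and whether the library labelled cured SPO 1 or the one labelled prion SPO 2 holds the state it is labelled with was not tested. Values without both of these libraries, the 2 doubtful libraries, stand beside the results that rest on them.

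Within the cured group the 2 libraries were less alike than within the prion group. Across the 6346 genes tested, Spearman's rho of log2 CPM was 0.968 between the cured libraries and 0.989 between the prion libraries. It was 0.985 and 0.983 for the cured and prion libraries of the same number, and 0.975 and 0.976 for the remaining pairs. These are correlations across genes, which are not replicates. In all, 378 genes differed at least 2-fold between the cured libraries, 104 between the prion libraries, and 146 to 221 between libraries of different states. The second principal component of the 4 libraries, with 38.2% of their variance, placed the cured libraries at 21.6 and 9.86 and the prion libraries at -15.4 and -16.1. The first, with 43.0%, placed the prion libraries between the cured ones.

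Iron acquisition genes were among those that differed most within a state. FIT2 and FIT3 encode cell wall mannoproteins that retain siderophore-bound iron, and ARN1 and ARN2 are siderophore transporters. FIT3 stood at 981 and 205 CPM in the cured libraries and at 286 and 159.9 CPM in the prion libraries. ARN1 stood at 349 and 61.6 CPM in cured and 139 and 64.04 CPM in prion libraries. ARN2 stood at 464 and 89.8 CPM in cured and 157 and 76.0 CPM in prion libraries. In each state the library with more MET17 counts also had more of these messages, and the states overlapped for all 4 genes. That library is replicate 1 in both states, so MET17 level and replicate number cannot be told apart here. PDC6, a minor pyruvate decarboxylase, followed the same order, with 109.5 and 22.0 CPM in cured and 67.7 and 29.7 CPM in prion libraries. None passed the test, and the log2 difference of FIT3 was 1.41 over all libraries but -0.47 without the libraries labelled cured SPO 1 and prion SPO 2.

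**Figure D1:**
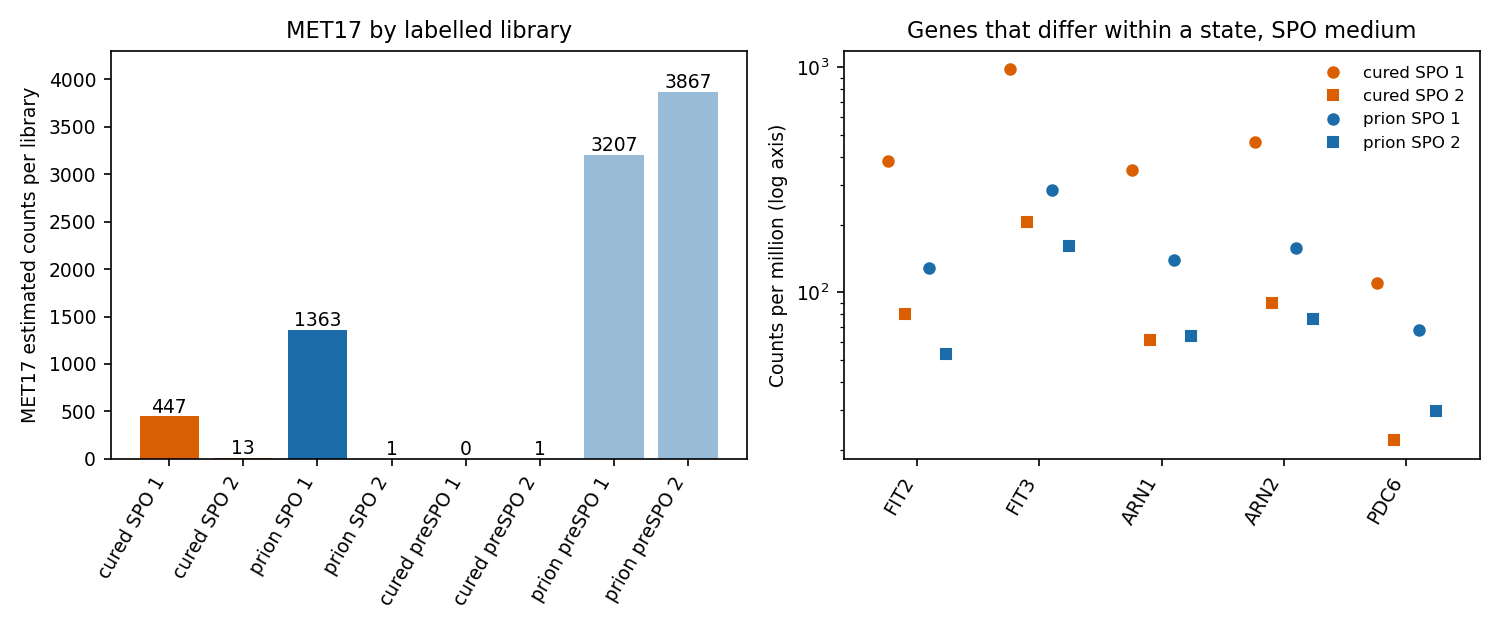
Left, estimated counts of MET17 in each library by label, cured left of prion within each medium and preSPO bars paler; the counts are 447 and 13 in cured SPO, 1363 and 1 in prion SPO, 0 and 1 in cured preSPO and 3207 and 3867 in prion preSPO libraries. Right, CPM on a log axis of FIT2, FIT3, ARN1, ARN2 and PDC6 in the 4 SPO libraries, 1 point per library; replicate 1 lies above replicate 2 in both states for all 5 genes.

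Of 6346 genes tested in SPO medium, 2 (0.0315%) were called at an adjusted p under 0.05, both lower in cured, by edgeR's quasi-likelihood test with Benjamini-Hochberg adjustment. At an unadjusted p under 0.05 stood 154 genes (2.43%), 105 higher in cured (1.65%) and 49 lower (0.772%). In 16.1% of genes both cured libraries lay above both prion libraries, and in 16.2% both lay below. These shares depend on the scaling: with library sizes left unscaled they were 3.67% and 32.2%, with unscaled sizes that leave out the targets TAR1 and YNL143C 8.82% and 24.0%, and on the deposited TPM values 1.73% and 26.5%. The median log2 difference of all genes was 0.01 with TMM, -0.17 with unscaled library sizes, -0.07 without the 2 targets and -0.23 on log2 TPM. Differences of lists are read below against these medians. Without the libraries labelled cured SPO 1 and prion SPO 2, which leaves 1 library a side, each assumed to vary like the preSPO groups, edgeR called 10 genes, 2 higher and 8 lower in cured. These included both genes called over all libraries, 5 other Ty frames and MET17. The 2 libraries were left out because of their MET17 counts, so its log2 difference of -9.16 there is set by that choice and supports nothing.

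Both called genes are Gag reading frames of Ty retrotransposons. A Ty element makes a short Gag product, the shell protein of its particles, and by a ribosomal frameshift a longer Gag-Pol product that adds the protease, integrase and reverse transcriptase. YDR316W-A (chromosome IV, 1096064 to 1097386, plus strand) and YGR161C-C (chromosome VII, 821693 to 823015, minus strand) each had 0 and 0 estimated counts in the cured libraries, against 657 and 849 in the prion libraries. The preSPO counts of each were 1 and 2 in cured and 0 and 0 in prion libraries. The states did not overlap in SPO medium, whereas MET17, above, split both states. With a floor of 3 counts over both cured libraries, the scaled estimated counts of each frame were at least 1246-fold lower in cured. With the shallow cured SPO 1 library alone they were at least 93.4-fold lower. These limits leave out how reads are divided among near-identical frames, described below, so they do not bound the change of the RNA. The edgeR adjusted p was 2.80e-04 for each, and over all alternatives that kept Ty frames as separate targets it reached at most 0.0069. The fitted log2 value of -13.05 depends on the prior count and is no bound.

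The sequences below show how little separates these frames from the Gag-Pol frames of the same elements. The coding bases of YDR316W-A and YGR161C-C are identical over their whole length of 1323 bases. They share their first 1305 bases with YDR316W-B and YGR161C-D, the Gag-Pol frames of the same 2 elements, which differ at 12 of the last 18 positions, where the annotated Gag-Pol sequence skips a base of the genome at the frameshift. YPR158C-C is a Gag frame on chromosome XVI whose counts had the same order between the states as those of the called pair. Bases 1276 to 1323 from the start codon are given 5′ to 3′ on the coding strand, from the RefSeq genome of build R64, with capitals where a frame differs from YDR316W-A.
YDR316W-A: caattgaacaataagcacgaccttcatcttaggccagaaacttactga
YGR161C-C: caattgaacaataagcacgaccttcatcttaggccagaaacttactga
YDR316W-B: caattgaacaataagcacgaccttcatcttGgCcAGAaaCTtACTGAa
YGR161C-D: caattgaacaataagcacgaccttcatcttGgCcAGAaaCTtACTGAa
YPR158C-C: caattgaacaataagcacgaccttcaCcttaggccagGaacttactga
Because reads of such copies are divided by kallisto's estimate, the counts of a single frame are uncertain, and reads of a Gag frame and of its Gag-Pol frame differ only where the end of the short frame is covered.

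The summed estimated counts of all Gag frames, as CPM, were lower in both cured SPO libraries than in both prion SPO libraries. Those of all Gag-Pol frames were higher, with values given after the single frames. These sums depend on how reads of shared bases were divided and are not levels of separate RNAs. Of 45 annotated Gag frames 23 passed the filter on low counts; the other 22 had at most 123 counts in any library, 14 of them 0 in all. Among the 23, 18 had a log2 difference below 0 and 5 above, the median was -0.82, and in 10 both cured libraries lay below both prion libraries, in 0 above (background 16.2% and 16.1%). The median was the same with the 5 frames at 0 in cured set to their bound. Frames such as the called pair passed the filter only through the prion SPO libraries, where they are high, so this tally describes the frames that passed and supports nothing. In 4 pairs of Gag frames, the called pair among them, both members had identical counts in all 8 libraries, so each pair is 1 pool of reads given to 2 targets and the 2 calls are not independent. Counting each pair once left 19 frames, 15 below 0 and 4 above, 8 of them without overlap and lower in cured. Besides the called pair, YML045W-A, YER159C-A and YMR051C had 0 counts in both cured libraries and above 0 in both prion libraries. YPR158C-C had 1 and 0 counts in cured, against 203 and 329 in prion libraries, with an edgeR adjusted p of 0.0524. YGR027W-A had 27 and 43 counts in cured, against 499 and 864 in prion libraries. All 46 Gag-Pol frames passed the filter. Of them 44 lay above 0 and 2 below, the median was 0.57, and in 31 both cured libraries lay above both prion libraries, in 0 below. The Gag-Pol frames YFL002W-A and YGR161W-B also had identical counts in all 8 libraries. Reads of near-identical Gag-Pol frames are divided too, so the 46 frames are not independent members. The Gag median stayed below 0 and the Gag-Pol median above 0 with every scaling, between -1.12 and -0.70 for Gag and between 0.26 and 0.57 for Gag-Pol. With 1 SPO library left out the Gag median lay between -3.21, without cured SPO 2, and -0.80. Without the libraries labelled cured SPO 1 and prion SPO 2 the Gag and Gag-Pol medians were -0.83 and 0.69. The Gag medians under all these settings are of the frames that passed the filter, as above, so their sign supports nothing. YDR261C-D, a Gag-Pol frame (chromosome IV, 987534 to 992349), had 2706 and 79508 counts (614 and 1461 CPM) in cured, against 364 and 1273 counts (37.7 and 90.6 CPM) in prion libraries, a log2 difference of 4.01 (SE 0.530, edgeR adjusted p = 0.0524, between 1.84e-16 with DESeq2 and 0.329 with the 4 SPO libraries alone). The Gag-Pol frame YGR038C-B had 299 and 2452 counts in cured, against 0 and 15 in prion libraries. These frames, other than the called pair, were chosen after their values were seen.

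Summed over each library, Gag frames stood at 191 and 192 CPM in cured SPO, against 455 and 558 CPM in prion SPO libraries. Gag-Pol frames stood at 14667 and 17384 CPM in cured SPO, against 9572 and 10476 CPM in prion SPO libraries. In preSPO medium Gag frames summed to 68.1 and 68.7 CPM in cured and 51.4 and 64.3 CPM in prion libraries, and Gag-Pol frames to 22791 and 20233 CPM in cured and 19106 and 21742 CPM in prion libraries. In SPO medium both kinds were set apart by state, Gag lower and Gag-Pol higher in cured. In preSPO medium Gag sums were slightly higher in cured and Gag-Pol sums overlapped. Gag and Gag-Pol frames of the element of YDR316W-A together had 45 and 9 counts in cured SPO, against 664 and 911 in prion SPO libraries. In preSPO medium they had 1892 and 9335 counts in cured and 3154 and 3985 in prion libraries. The element of YGR161C-C, in contrast, overlapped in SPO medium, with 238 and 166 CPM in cured and 294 and 201 CPM in prion libraries. When the frames that share bases on 1 strand were summed per element before the fit, an alternative chosen after seeing the data, 0 of 6326 genes were called by edgeR (146 at an unadjusted p under 0.05). The smallest adjusted p was then 0.209, for the element of YDR261C-D, at a log2 difference of 4.01 (SE 0.525). Of the 49 Ty targets in that fit 43 lay above 0 and 6 below, with a median of 0.48. Near-identical elements still share reads, so these targets are not independent members. With all Ty frames in 1 target the log2 difference was 0.62 (SE 0.391, edgeR adjusted p = 1), and 0 of 6278 genes were called by edgeR (126 at an unadjusted p under 0.05). With frames left separate, DESeq2 called 15 genes, 9 of them Ty frames, and limma-trend on log2 TPM called 10, all of them Ty frames.

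**Figure D2:**
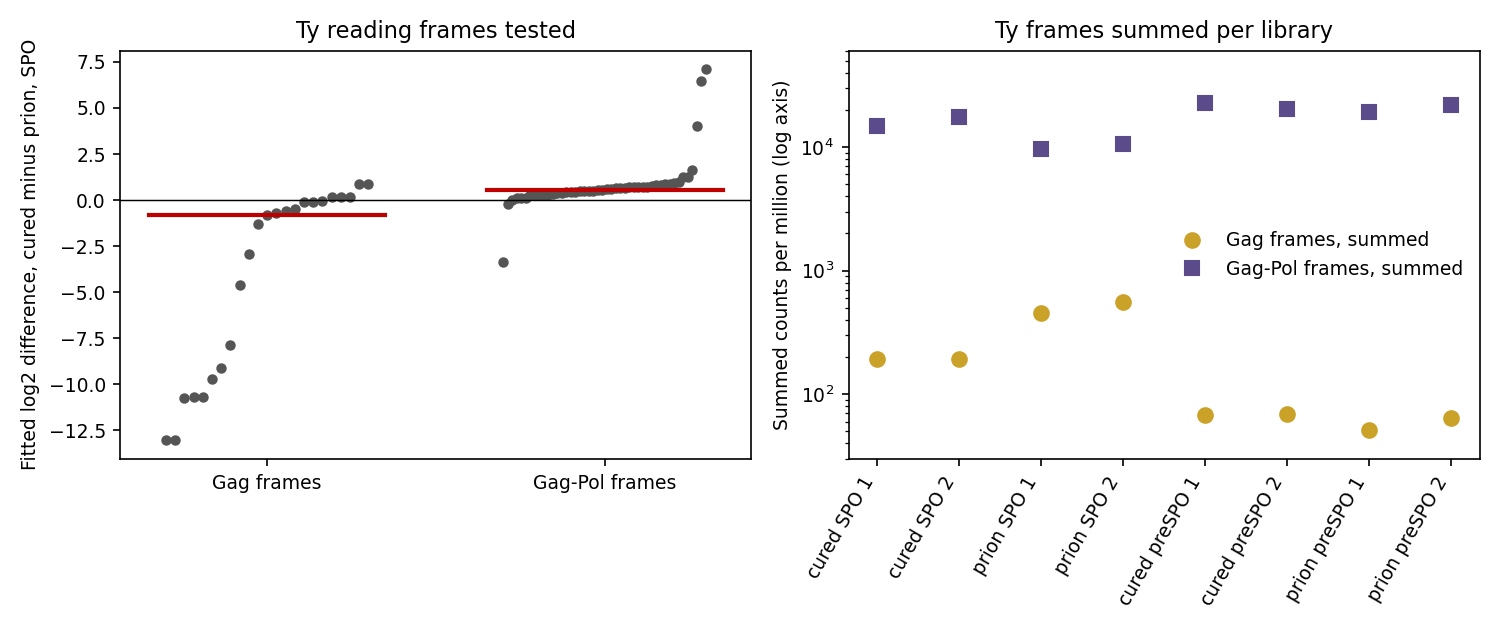
Left, fitted log2 difference of cured minus prion in SPO medium for the 23 Gag and 46 Gag-Pol frames tested, 1 point per frame with the median as a red line (-0.82 and 0.57); values below -9 or above 6 come from frames at or near 0 counts in 1 state and depend on the prior count. Right, CPM summed over the frames of each kind in every library on a log axis, cured left of prion within each medium; in SPO medium Gag sums are lower in cured (191 and 192 CPM, against 455 and 558 CPM) and Gag-Pol sums higher (14667 and 17384 CPM, against 9572 and 10476 CPM).

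Reading frames of the mitochondrial genome stood higher in both cured libraries more often than other genes did. This genome encodes a few subunits of the respiratory chain and of ATP synthase, a ribosomal protein, and intron-encoded maturases and endonucleases, and its messages carry no poly(A) tail in yeast. Of 28 mitochondrial frames measured, 21 passed the filter and 7 did not, with at most 30 counts in any library. In 14 of the 21 both cured libraries lay above both prion libraries and in 2 below (background 16.1% and 16.2%), and 13 stood at an unadjusted p under 0.05, all higher in cured (background 1.65%). On TPM 8 lay above and 2 below (background 1.73% and 26.5%). Intron frames of COX1 and COB share reads with their host genes, so the frames in these tallies are not independent members. The median log2 difference was 0.78, with 0.60 on unscaled library sizes, 0.70 without TAR1 and YNL143C and 0.51 on log2 TPM, each against the all-gene median given above. It lay between 0.71 and 0.93 when 1 SPO library was left out, and was 1.06 without the libraries labelled cured SPO 1 and prion SPO 2. With edgeR none of the 21 passed the adjusted threshold, so no single frame is reported as changed. DESeq2 called 4 of them, AI2, COB, COX3 and COX2.

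Among the respiratory subunits, COX3, cytochrome c oxidase subunit 3, stood at 70.8 and 89.4 CPM in cured libraries and 34.0 and 30.2 CPM in prion libraries, a log2 difference of 1.33 (SE 0.224, edgeR adjusted p = 0.212). COX2, subunit 2 of the same enzyme, stood at 52.4 and 78.9 CPM in cured and 26.2 and 25.8 CPM in prion libraries (1.35 ± 0.269 SE). COB, cytochrome b, stood at 118 and 162 CPM in cured and 55.2 and 69.6 CPM in prion libraries (1.17 ± 0.210 SE). All 3 were close to 2-fold or more apart with no overlap. ATP6, a subunit of the membrane part of ATP synthase, stood at 143.8 and 157 CPM in cured and 83.9 and 91.4 CPM in prion libraries. COX1, subunit 1, stood at 1343 and 1593 CPM in cured and 1013 and 967 CPM in prion libraries. OLI1, the ring subunit of ATP synthase, overlapped between the states, with 8249.9 and 26406 CPM in cured and 10068 and 16225 CPM in prion libraries, and so did VAR1, the ribosomal protein, with 11.6 and 23.8 CPM in cured and 11.5 and 14.9 CPM in prion libraries. The difference was thus not shared by every frame.

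Intron frames of COX1 and COB share exons with their host genes, so reads of the host and of the frame are not told apart. AI2, a maturase and reverse transcriptase frame of COX1 (chromosome MT, 13818 to 18830), stood at 588 and 654 CPM in cured and 249 and 283 CPM in prion libraries, a log2 difference of 1.23 (SE 0.181, edgeR adjusted p = 0.101). AI1 stood at 4065 and 5596 CPM in cured and 2513 and 2066 CPM in prion libraries. AI4 stood at 716 and 466 CPM in cured and 328 and 319 CPM in prion libraries. In AI1 to AI4, BI3 and BI4 the states did not overlap. AI5_BETA overlapped, with 229 and 154 CPM in cured and 174 and 175 CPM in prion libraries. Q0010 and Q0144 were the 2 frames whose cured libraries lay below both prion libraries, by little: Q0144 had 1.13 and 1.05 CPM in cured and 1.14 and 1.35 CPM in prion libraries. Summed over all 28 frames the mitochondrial share of counts was 1.64% and 2.85% in cured and 1.58% and 2.01% in prion libraries, which overlap; OLI1 made up most of this sum in all but cured SPO 1. Members of this list beyond AI2, COX3, COB and the genes of the naming rule given below were chosen after their values were seen. Nuclear genes of oxidative phosphorylation showed no steady direction. Of 35 tested, 1 had both cured libraries above and 5 below (background 16.1% and 16.2%). Their median was -0.09, with 14 members above 0 and 21 below. Without both doubtful libraries the median was 0.17, with 27 members above 0 and 8 below.

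**Figure D3:**
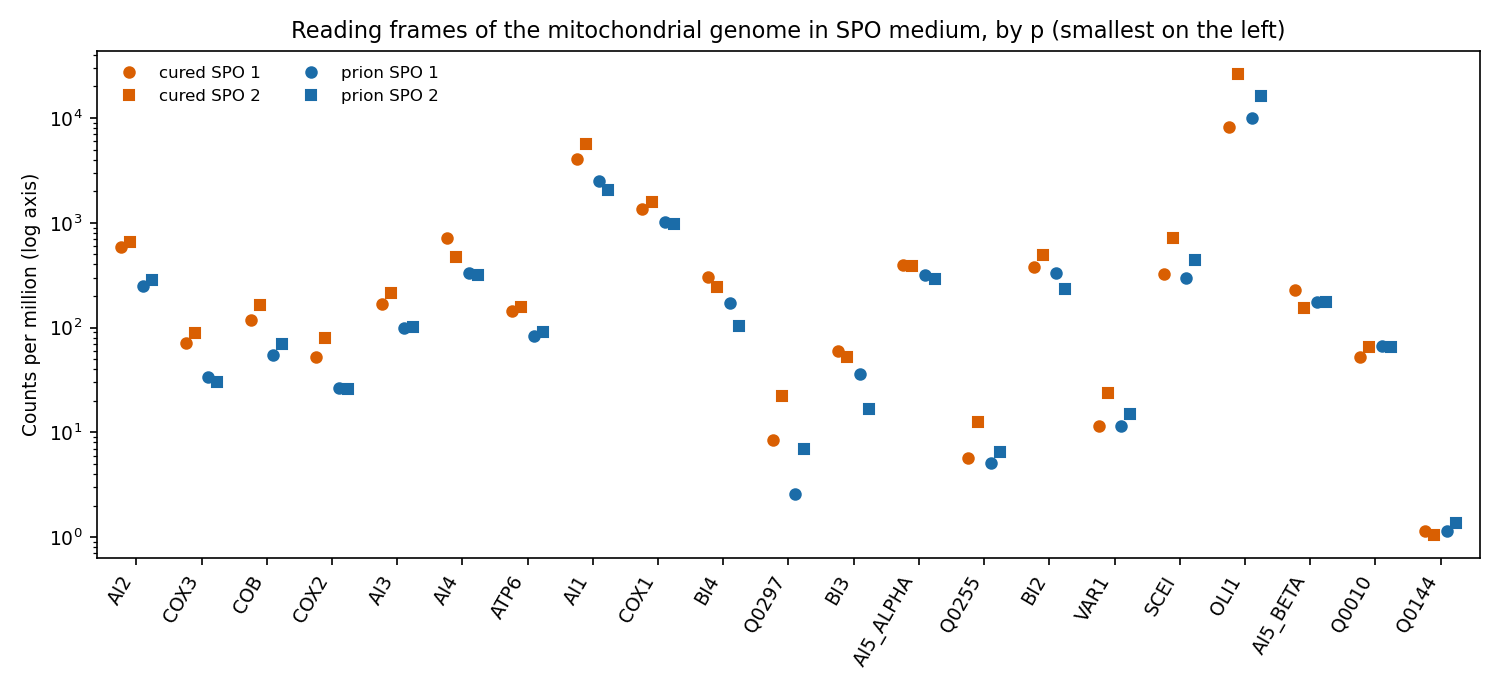
CPM on a log axis of the 21 mitochondrial frames tested in the 4 SPO libraries, cured left of prion for each frame, circles for replicate 1 and squares for replicate 2, ordered by p. The 13 frames on the left, from AI2 to AI5_ALPHA, have both cured libraries above both prion libraries, as in AI2 with 588 and 654 CPM in cured against 249 and 283 CPM in prion; frames on the right mostly overlap.

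Other targets that do not stand for ordinary messenger RNA differed between these libraries too, and their part in the mitochondrial and Ty results was not tested. YLR154C-G, a frame inside the 25S ribosomal RNA gene (chromosome XII, 462522 to 462671), stood at 3711 and 2155 CPM in cured and 960.0 and 770.0 CPM in prion libraries, a log2 difference of 1.76 (SE 0.305, edgeR adjusted p = 0.212). TAR1, a frame antisense to the same ribosomal RNA unit and the most abundant target of each library, held 12.6% and 14.8% of counts in cured and 10.6% and 13.5% in prion libraries, which overlap. YHR218W, a frame of a subtelomeric helicase-like gene, had 20 and 154 counts in cured and 0 and 0 in prion libraries.

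YNL143C stood apart in 1 library. It is an uncharacterized frame (chromosome XIV, 356794 to 357186, minus strand) with the longest run of A, 32 bases, in 6014 coding sequences searched. Bases 123 to 194 from its start codon, 5′ to 3′ on the coding strand and with that run in capitals, from the RefSeq genome of build R64, are
YNL143C: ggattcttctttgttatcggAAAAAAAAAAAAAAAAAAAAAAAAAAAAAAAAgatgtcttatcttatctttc
It had 2354 and 6406530 counts in cured libraries, against 18624 and 15122 in prion libraries, and took 8.94% of the counts of cured SPO 2. MTC7, with the next longest run (25 bases), stood at 98.4 and 379 CPM in cured and 181.6 and 131 CPM in prion libraries. Both were highest in cured SPO 2 and lowest in cured SPO 1, so the prion libraries lay between the cured ones. Without cured SPO 2 the log2 difference of YNL143C was -1.50 in place of 5.30, and that of MTC7 -0.67 in place of 0.63.

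Among genes at the entry to meiosis IME1 stood lower in cured libraries without passing the test. IME1, the master regulator (chromosome X, 604569 to 605651), stood at 111 and 116 CPM in cured and 127 and 211 CPM in prion libraries, a log2 difference of -0.58 (SE 0.243, edgeR adjusted p = 1). The states did not overlap, but the gap was set by the library labelled prion SPO 2: without it the difference was -0.16, and without that library and cured SPO 1 it was -0.13. SLZ1, a target of Ime1, stood at 151 and 239.9 CPM in cured and 281 and 276 CPM in prion libraries. RIM21, part of the alkaline pH pathway upstream of IME1, stood at 84.1 and 74.0 CPM in cured and 96.9 and 99.9 CPM in prion libraries. Of 21 regulators tested, 1 had both cured libraries above and 6 below, with a median of -0.04 (background 16.1% and 16.2%, median 0.01).

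Early genes of recombination and synapsis showed the widest imbalance of the meiotic lists. Of 32 tested, 15 had both cured libraries below both prion libraries and 3 above (background 16.2% and 16.1%), 22 had a log2 difference below 0 and 10 above, and the median was -0.20. With unscaled library sizes the counts were 18 below and 0 above at a median of -0.38 (background 32.2% below and 3.67% above), and on TPM 19 and 0 at a median of -0.38 (background 26.5% and 1.73%). None was called by edgeR and 1 stood at an unadjusted p under 0.05. DMC1, the meiotic strand exchange protein, stood at 65.8 and 98.4 CPM in cured and 99.4 and 140.3 CPM in prion libraries, a log2 difference of -0.53 (SE 0.272). SAE3, which assists Dmc1, stood at 21.5 and 47.6 CPM in cured and 57.9 and 57.0 CPM in prion libraries. SPO11, which makes the meiotic DNA breaks, stood at 15.4 and 17.9 CPM in cured and 21.1 and 24.3 CPM in prion libraries. In these 3 the states did not overlap, yet in DMC1 the higher cured and the lower prion library were nearly level. Without the libraries labelled cured SPO 1 and prion SPO 2 the list's median was -0.06, with 11 members above 0 and 21 below, and DMC1's log2 difference was -0.01.

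Of 31 middle genes tested 3 were higher and 4 lower in cured without overlap (background 16.1% and 16.2%), with a median of -0.01 (all-gene median 0.01). With unscaled library sizes 0 middle genes were higher and 12 lower (background 3.67% and 32.2%). NDT80, their activator, stood at 44.9 and 51.1 CPM in cured and 54.4 and 56.1 CPM in prion libraries. Among late spore wall genes 1 of 20 tested was higher and 4 lower (background 16.1% and 16.2%), with a median of -0.07. With unscaled library sizes 0 late genes were higher and 8 lower (background 3.67% and 32.2%). No direction is read from the counts of either list. DIT1, which makes the dityrosine precursor of the outer spore wall (chromosome IV, 1274602 to 1276212), had the lowest log2 difference of any gene that met the naming rule. It stood at 8.39 and 9.19 CPM in cured and 15.8 and 16.01 CPM in prion libraries, a log2 difference of -0.85 (SE 0.219, edgeR adjusted p = 0.936). Without both doubtful libraries the difference was -0.78, whose direction was fixed in advance because the naming rule asks for no overlap. In preSPO medium DIT1 had stood at 15.6 and 14.4 CPM in cured and 19.2 and 20.4 CPM in prion libraries. DIT1 was thus also lower in cured libraries there, and in each state both SPO libraries had less of it than both preSPO libraries. SPS100 overlapped, with 2439 and 1181 CPM in cured and 1796 and 1295 CPM in prion libraries.

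The naming rule, which takes genes with a standard symbol, an unadjusted p under 0.05, a group mean of 10 CPM or more and states that do not overlap, was met by 92 genes, 58 higher and 34 lower in cured. None passed the adjusted threshold with edgeR. Of the 12 with the largest difference 9 are mitochondrial frames. The other 3 are SRX1, sulfiredoxin, which repairs oxidized peroxiredoxins, with 15.2 and 19.1 CPM in cured and 7.66 and 8.61 CPM in prion libraries; BSC1, a flocculin-like frame known for stop codon bypass, with 18.1 and 17.2 CPM in cured and 10.5 and 8.04 CPM in prion libraries; and PMA1, the plasma membrane proton pump, with 745 and 1225 CPM in cured and 507 and 626 CPM in prion libraries. Their log2 differences were 1.09 (SE 0.381), 0.94 (SE 0.282) and 0.80 (SE 0.324), all with an edgeR adjusted p of 1. Without both doubtful libraries they were 1.32, 0.72 and 1.28. Their direction there was fixed in advance, because the rule asks for no overlap, and supports nothing.

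At the other end, the 12 lowest held DIT1 and IME1, given above, and genes of mixed function with small differences. CTS2, a putative chitinase, had 19.3 and 19.3 CPM in cured and 31.5 and 26.6 CPM in prion libraries (-0.59 ± 0.202 SE). HAT1, a histone acetyltransferase subunit, had 24.3 and 28.4 CPM in cured and 39.2 and 40.3 CPM in prion libraries (-0.58 ± 0.197 SE). THP2, of the THO complex that couples transcription to export, had 16.8 and 16.6 CPM in cured and 23.7 and 27.9 CPM in prion libraries. Within each state these values lay closer together than the states did, which the naming rule favours by asking for a low p and no overlap. FLX1, RRI2, IBA57, GPM3, HSH49, CCZ1 and MRX1 completed the 12, with log2 differences between -0.63 and -0.48, each with an edgeR adjusted p of 1.

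**Figure D4:**
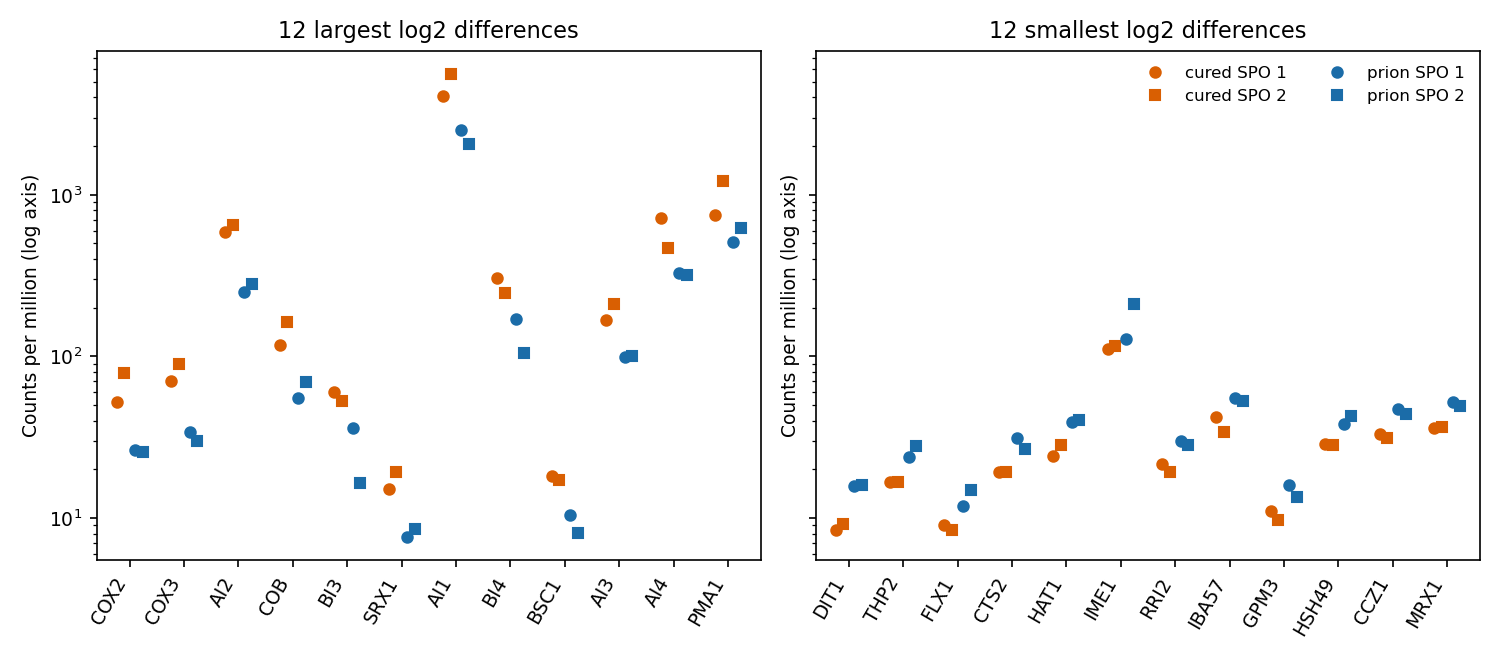
CPM on a log axis of the 12 genes with the largest (left) and the 12 with the lowest (right) log2 difference of cured minus prion in SPO medium under the naming rule, 1 point per library, cured left of prion. The rule itself asks for no overlap, so the separation is by choice; the largest fitted differences are those of COX2 and COX3 (52.4 to 89.4 CPM in cured, against 25.8 to 34.0 CPM in prion) on the left and the lowest that of DIT1 (8.39 and 9.19 CPM in cured, against 15.8 and 16.01 CPM in prion) on the right.

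Ribosomal protein and ribosome biogenesis genes had more members above than below in cured libraries with TMM, and this depended on the scaling (background 16.1% above and 16.2% below with TMM, 3.67% and 32.2% with unscaled library sizes). Of 135 cytosolic ribosomal protein genes tested, 33 had both cured libraries above and 2 below, with a median of 0.16, but with unscaled library sizes 13 were above and 34 below with a median of -0.04. Of 66 ribosome biogenesis genes 20 were above and 1 below with a median of 0.11, but 1 above and 12 below with a median of -0.08 on unscaled sizes. Relative to the all-gene median of -0.17 on that scale both lists still lay higher. RPL9B, of the large subunit, stood at 79.1 and 80.3 CPM in cured and 53.7 and 60.7 CPM in prion libraries (0.48 ± 0.185 SE); it has a near-identical paralog, so its reads may be divided. NSA2, an assembly factor of the large subunit, stood at 43.3 and 44.0 CPM in cured and 35.3 and 32.2 CPM in prion libraries (0.37 ± 0.159 SE). The ribosomal protein median was 0.39 without both doubtful libraries and -0.04 without cured SPO 2 alone.

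Cell wall genes lay mostly above 0 with TMM. Of 40 tested, 36 had a log2 difference above 0, and 16 had both cured libraries above and 0 below (background 16.1% and 16.2%), with a median of 0.25 that was 0.07 on unscaled library sizes and -0.03 on log2 TPM, each above the all-gene median on its scale. With unscaled sizes 6 were above and 3 below (background 3.67% and 32.2%), and on TPM 1 and 2 (background 1.73% and 26.5%). SCW4, a soluble cell wall glucanase-like protein, stood at 431 and 462 CPM in cured and 328 and 309.7 CPM in prion libraries (0.49 ± 0.184 SE). SCW11, a relative active in mother and daughter separation, stood at 103 and 128 CPM in cured and 81.4 and 93.6 CPM in prion libraries. PIR3, which is linked to wall glucan, stood at 259.9 and 277 CPM in cured and 186 and 199 CPM in prion libraries. None passed the adjusted threshold. The median was between 0.21 and 0.29 when 1 SPO library was left out, and 0.21 without both doubtful libraries.

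The median of glycolysis and fermentation genes was 0.26, with 8 of 27 above and 1 below (background 16.1% and 16.2%). On log2 TPM the median of this list was -0.05, against an all-gene median of -0.23. The value of 0.26 rested on the library labelled cured SPO 1, without which the median was 0.0013. Without that library and prion SPO 2 the median was -0.13. TDH1, a glyceraldehyde-3-phosphate dehydrogenase isoform, stood at 1144 and 1174 CPM in cured and 789 and 743 CPM in prion libraries, and shares sequence with TDH2 and TDH3. HXT7, a high-affinity hexose transporter nearly identical to HXT6, stood at 104 and 78.0 CPM in cured and 55.0 and 62.4 CPM in prion libraries (0.62 ± 0.202 SE). Sulfur assimilation genes, the pathway of MET17, had 10 of 34 above and 1 below with a median of 0.19, which was -0.01 on unscaled library sizes. The lists of β-oxidation (1 of 20 above, 5 below, median -0.19), redox defence (3 of 34 above, 9 below, median -0.04) and proteasome and autophagy (7 of 58 above, 14 below, median -0.02) stood beside shares of 16.1% above and 16.2% below over all genes, and no direction is read from them. For β-oxidation the median turned to 0.10 without both doubtful libraries. ATG7, the activating enzyme of autophagosome formation, stood at 69.4 and 64.7 CPM in cured and 87.8 and 96.2 CPM in prion libraries.

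**Figure D5:**
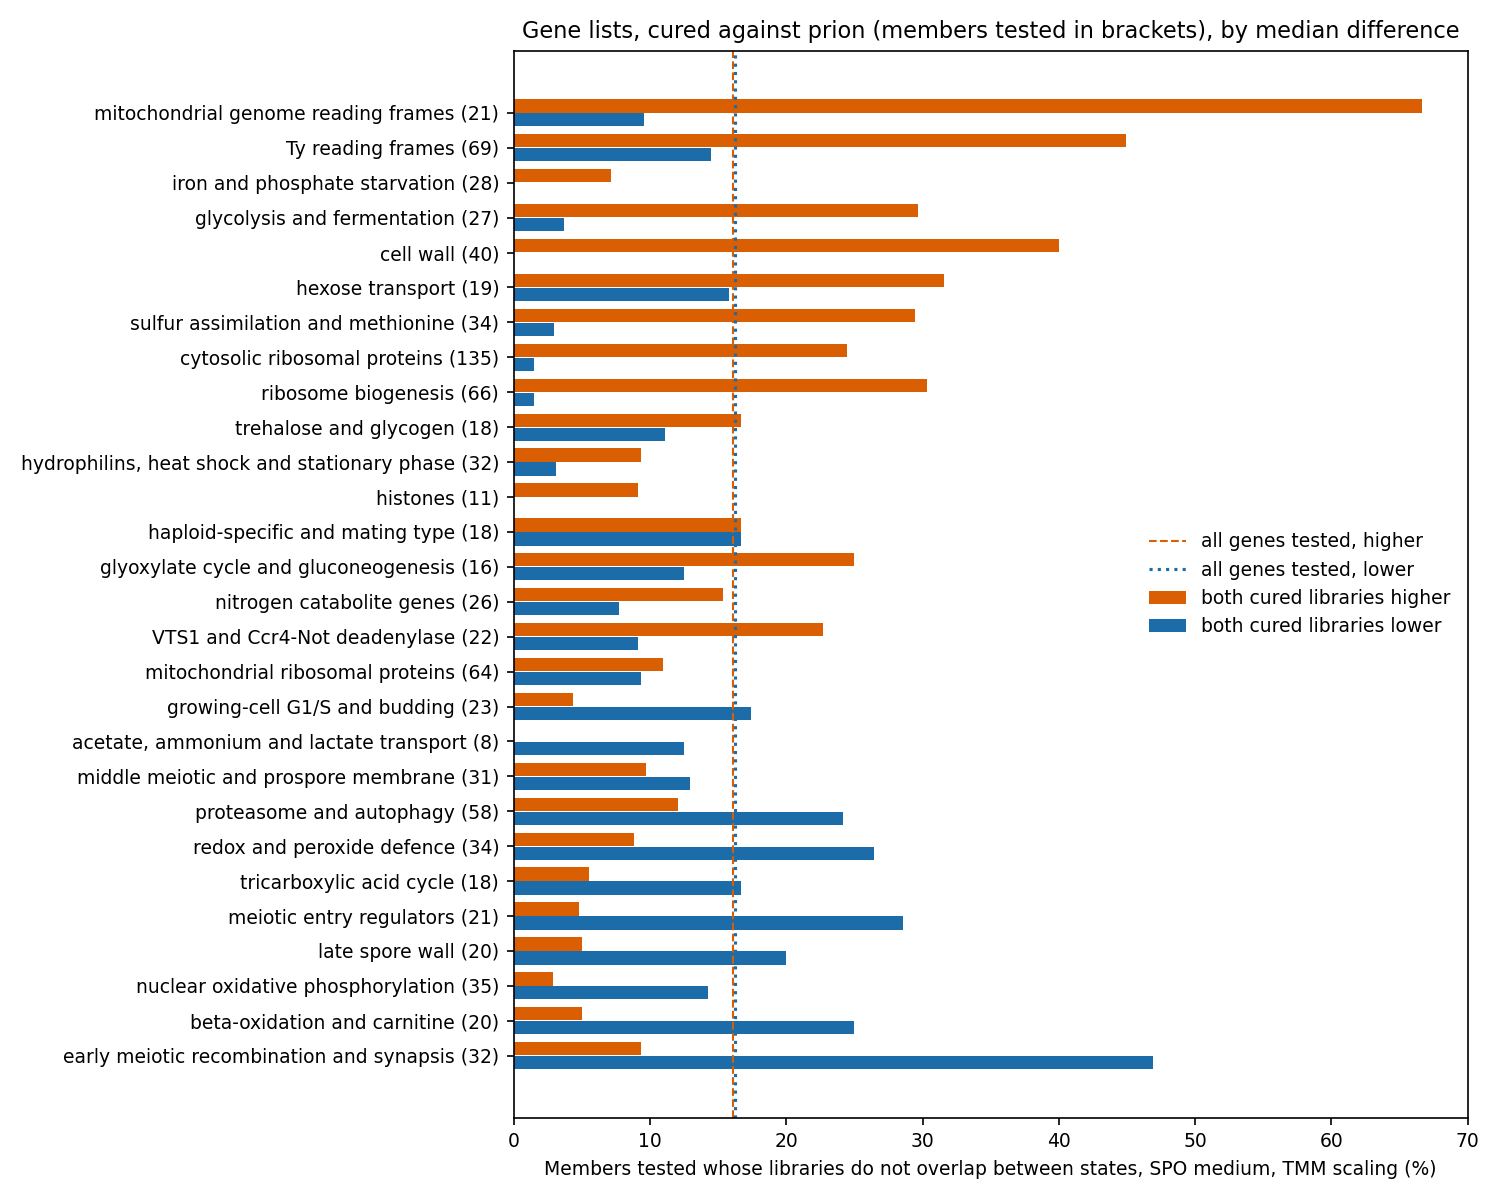
Share of the tested members of each gene list (number in brackets) whose 2 cured libraries lie above (orange) or below (blue) both prion libraries in SPO medium with TMM scaling, ordered by median log2 difference, with the shares of all genes tested, 16.1% and 16.2%, as lines. Mitochondrial frames have the highest share above (14 of 21) and early meiotic genes the highest share below (15 of 32); with unscaled library sizes the shares of all genes are 3.67% and 32.2%, and the medians of the ribosomal protein, ribosome biogenesis and sulfur lists lie below 0, as those of the cell wall, glycolysis, hexose transport and iron lists do on log2 TPM.

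VTS1 itself did not differ detectably between the states. It stood at 15.9 and 11.2 CPM in cured and 13.8 and 13.2 CPM in prion libraries (chromosome XV, 1011189 to 1012760), a log2 difference of -0.04 (SE 0.339) that ranged from -0.29 to 0.23 over the alternatives, and cured SPO 2 lay lowest and cured SPO 1 highest of the 4. Of the 22 genes tested for Vts1, Ccr4-Not and their partners in decay, 5 had both cured libraries above and 2 below (background 16.1% and 16.2%), with a median of 0.03. DHH1, a helicase that promotes decapping, stood at 81.9 and 45.5 CPM in cured and 43.2 and 43.6 CPM in prion libraries. PAB1, the poly(A)-binding protein, stood at 382 and 381 CPM in cured and 326 and 323 CPM in prion libraries. PAN3, of the second yeast deadenylase, stood at 60.1 and 58.9 CPM in cured and 68.9 and 67.9 CPM in prion libraries. None had an unadjusted p under 0.05.

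Coding sequences were searched for hairpins of the Smaug kind, a loop of CNGG or CNGGN closed by 5 base pairs, Watson-Crick or G-U, on the coding strand. Of 5832 tested genes searched, 1100 (18.9%) hold at least 1. Their median log2 difference was 0.03, against 0.01 for the 4732 genes with none, and neither called Ty frame holds one. Both cured libraries lay above both prion libraries in 16.6% of genes with a site and in 16.3% of genes without, and below in 14.4% of genes with a site and 17.1% without. At an unadjusted p under 0.05 stood 18 higher and 3 lower among genes with a site, and 74 higher and 44 lower among those without. Genes with a site are longer, with a median coding length of 1677 against 1131 bases. The sites of 3 genes described above are given 5′ to 3′ from the RefSeq genome of build R64, with the loop in capitals and its first base at coding position 1082 in DIT1, 1940 in PMA1, and 1411 in MRX1, whose first of 2 sites is shown.
DIT1: agatgCAGGTcgttt
PMA1: tgataCTGGtattg
MRX1: agtgtCTGGacatt
Of 28 named genes searched, 7 hold a site, the other 4 being AI4, BI4, LYS2 and HIS3. DIT1 and MRX1 stood lower in both cured libraries, and PMA1 and the mitochondrial frames AI4 and BI4 higher. These genes were named by a rule that asks for no overlap, so their separation is by choice. LYS2 and HIS3, named as strain markers, overlapped between the states. A match is a description of the sequence, and binding was not measured.

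A dependence of the state difference on the medium was tested as an interaction in the same fit. One gene of 6346 (0.0158%) was called, AI2, with a log2 interaction of 2.52 (SE 0.258, edgeR adjusted p = 0.0341, Benjamini-Hochberg). In SPO medium AI2 stood at 588 and 654 CPM in cured and 249 and 283 CPM in prion libraries, and in preSPO medium at 65.5 and 71.4 CPM in cured and 180.3 and 156 CPM in prion libraries, so the order of the states was opposite in the 2 media. Of the 21 mitochondrial frames 11 had an unadjusted interaction p under 0.05, 11 positive and 0 negative (background 7.12% and 5.34%). Some of these frames share reads, as said above, and the median interaction was 1.07. Not all frames shared it: COX3 stood at 9.41 and 11.6 CPM in cured and 6.01 and 3.94 CPM in prion preSPO libraries, higher in cured in both media. The call of AI2 did not hold without the libraries labelled cured SPO 1 and prion SPO 2 (log2 2.70, edgeR adjusted p = 0.0983), nor when any 1 library other than cured SPO 1 or prion preSPO 1 was left out (edgeR adjusted p between 0.0514 and 0.194). Cell wall genes had 26 of 40 members with an unadjusted interaction p under 0.05, 26 positive and 0 negative, at a median of 1.05, beside a median difference of 0.25 in SPO medium and of -0.73, lower in cured, in preSPO medium. None of them was called by edgeR over all libraries. With thinned libraries, either Ty sum, the robust spread estimate or without prion preSPO 1 edgeR did call SCW4 (adjusted p between 0.0315 and 0.0489), and without prion preSPO 1 also SIM1, TOS6 and UTH1 of this list. DESeq2 called 131 interactions over all genes, SCW4 among them at a log2 interaction of 2.24.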

How the data were processed

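Poly(A) RNA of whole cultures was sequenced after oligo-dT selection, per the labels. The authors quantified reads against R64 targets with kallisto, per the submitters' processing notes (version, strand setting and mapping rate: not given in the sources used here). The deposited tables hold, for each of 6713 targets, estimated counts that kallisto had divided among targets sharing reads, and TPM values, which the authors had scaled to length and library. Estimated counts were rounded to whole numbers and fitted with edgeR 4.0.16 (R 4.3.3): TMM, filterByExpr (6346 targets kept), 1 mean per group over all 8 libraries, quasi-likelihood F-tests, two-sided, Benjamini-Hochberg adjustment over all genes tested, threshold 0.05. CPM values use the TMM-scaled library sizes (factors 0.948 and 0.759 in cured, 0.994 and 0.934 in prion SPO libraries), and 3 counts stood at 0.680 and 0.0551 CPM in cured and at 0.311 and 0.213 CPM in prion SPO libraries. Gene names came from RefSeq R64, which matched 6026 targets (89.8%).

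Alternatives were DESeq2 1.42.0, limma 3.58.1 trend on log2(TPM + 1), which understates the change of low genes, unscaled library sizes, no filter on low counts, robust spread, the SPO libraries alone or thinned to 1 depth, replicate blocks, each library left out, and both libraries that MET17 sets against their labels left out. Unscaled sizes without TAR1 and YNL143C, Ty frames summed per element or in all, and the counts of members without overlap under 4 scalings were added after seeing the data. The members and lists were chosen with earlier results of these data known. The rule for naming genes covered the strain markers, VTS1, every call, the 12 largest and 12 smallest differences under the rule given with them, the 3 members with the smallest p of each list, the 5 genes that differed most between the libraries of a state, and the markers of cell types, of which the text gives a selection. Any other gene is said to have been chosen after its values were seen, except TAR1, YLR154C-G, YHR218W, YNL143C, MTC7 and the paralogs named, for which it is said here. Intervals cover counting error only.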

Additional observations from a re-analysis of the deposited data

Results flagged for a closer look

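The state by medium interaction of AI2, the mitochondrial intron frame described above, is singled out because the cured and prion cultures differed in opposite directions in the 2 media: the log2 interaction was 2.52 (SE 0.258, edgeR adjusted p = 0.0341 with Benjamini-Hochberg adjustment over 6346 genes). AI2 stood higher in both cured libraries than in both prion libraries in SPO medium and lower in both in preSPO medium. The interaction lay between 2.09 and 2.70 over all alternatives. The call was lost with a replicate block with culture (edgeR adjusted p = 0.0587), without both doubtful libraries (edgeR adjusted p = 0.0983) and without any 1 library other than cured SPO 1 or prion preSPO 1 (edgeR adjusted p between 0.0514 and 0.194). Over all libraries it was the only gene called by edgeR among 6346, while 791 (12.5%) had an unadjusted interaction p under 0.05 and DESeq2 called 131.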

How the results depend on the processing

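Both Ty Gag frames were called under each alternative that kept Ty frames apart. The count of SPO calls was 2 with edgeR and 15 with DESeq2, 10 with limma-trend on log2 TPM, 4 with thinned SPO libraries, 4 with unscaled library sizes, 4 with those sizes without TAR1 and YNL143C, and 10 without both doubtful libraries. It was 0 with Ty frames summed per element and 0 with all Ty frames summed. Leaving out 1 library gave between 2 and 11 SPO calls, the 11 without cured SPO 1. The interaction count was 1 with edgeR and 131 with DESeq2, 41 with limma-trend, 4 with unscaled sizes, and 2 each with thinned libraries, either Ty sum, the robust spread estimate or both doubtful libraries left out. Leaving out 1 library gave between 0 and 44 interaction calls, the 44 without prion preSPO 1.

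Replicate numbers are shared by the labels but no source says that they pair cultures: over the 6 pairs of groups, deviations of same-numbered libraries correlated across genes at a Pearson r between -0.049, for prion SPO and cured preSPO, and 0.316, for cured SPO and cured preSPO. Spearman's rho was 0.504 for cured SPO and cured preSPO and 0.369 for cured SPO and prion SPO. For the remaining pairs of groups it lay between 0.027 and 0.194. With the replicate block the fit called 3 genes in SPO medium and 1 interaction, the median of the Gag frames was -1.35 in place of -0.82, and with a replicate block with culture 0 interactions (1106 at an unadjusted p under 0.05; AI2 adjusted p 0.0587, edgeR).

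Of the named genes, 1304 values under alternatives kept their direction and side of the threshold, 26 passed it and 18 turned their direction; the cause was not tested. VTS1 ranged from -0.29 to 0.23 and was 0.22 with thinned libraries. With 1 SPO library or both doubtful libraries left out, MET17 ranged from -9.16 to 9.25, YNL143C from -1.50 to 6.29, MTC7 from -0.67 to 1.28, FIT2 from -0.69 to 2.10, FIT3 from -0.47 to 2.13, ARN1 from -1.17 to 1.78, ARN2 from -0.80 to 1.99 and PDC6 from -1.62 to 1.17, and PDC6 was -0.064 on log2 TPM. The shallowest library, cured SPO 1, and 2 libraries a side limit what small differences can show.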

Other observations

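Histone genes differed little between the states in SPO medium and more in preSPO medium. Of 11 tested, 1 had both cured libraries above and 0 below both prion libraries in SPO medium (background 16.1% and 16.2%), with a median log2 difference of 0.05 (-0.13 on unscaled library sizes, where the all-gene median is -0.17). In preSPO medium their median was -1.01, lower in cured, and 8 had an unadjusted interaction p under 0.05, 8 positive and 0 negative (background 7.12% and 5.34%). Sulfur assimilation genes had the opposite pattern: their median was 0.45 in preSPO medium and 0.19 in SPO medium, and 2 of 34 had a positive and 13 a negative interaction at an unadjusted p under 0.05. None of these genes was called by edgeR's interaction test over all libraries. DESeq2, limma-trend and edgeR without prion preSPO 1 each called some of the sulfur genes, MET32 among them, and DESeq2 called the histone gene HHT2.

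In SPO medium both cured libraries lay above both prion libraries in 16.1% of all genes and below in 16.2%, and no direction is read from the counts that follow. Genes of heat shock and stationary phase had 3 of 32 above and 1 below in SPO medium with a median of 0.05, and those of trehalose and glycogen 3 of 18 above and 2 below with a median of 0.10, which was -0.07 on unscaled library sizes. The tricarboxylic acid cycle had 1 of 18 above and 3 below with a median of -0.04. Glyoxylate cycle and gluconeogenesis genes, used on acetate, had 4 of 16 above and 2 below with a median of 0.05. Mitochondrial ribosomal protein genes, encoded in the nucleus, had 7 of 64 above and 6 below with a median of 0.02, beside 0.78 for the reading frames of the mitochondrial genome.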
